A study of Mus musculus with 15 samples.

Results

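H3K4me3 at the promoters of 43 germline and meiosis genes was examined in adult mouse amygdala, out of 21938 annotated protein-coding genes. The genes were a given list of piRNA pathway genes, meiotic chromosome genes, germ cell RNA regulators and testis-specific copies of broadly used genes. For each gene the best-scoring H3K4me3 summit within 1 kb of any of its annotated transcription start sites (TSSs) was taken, and the gene was called marked if there was one. Where another gene's TSS also lay within 1 kb of that summit, the summit could not be assigned to the listed gene alone, and it is called shared. The values come from WT mice, which were adult male F1 hybrids of 129S1/SvImJ and C57BL/6J, labelled 129xB6. The series holds 15 ChIP-seq samples, of which 11 are H3K4me3 and 4 are inputs, each H3K4me3 reaction starting from 20000 nuclei. Kmt2a-HET, Kdm5c-KO and double-mutant (DM) samples were not analysed here, so no genotypes were compared. The 2 WT mice were deposited as 1 list of peak summits, which leaves no spread between replicates and no test over samples.

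H3K4me3 is trimethylation of lysine 4 of histone H3, and it sits around the start sites of active genes and of many CpG-rich promoters that are ready for use. Germline genes serve the making of eggs and sperm. The piRNA pathway silences transposons with small RNAs bound by PIWI proteins, and meiosis pairs, recombines and separates homologous chromosomes. In somatic tissues most of these genes are kept silent, many of them by promoter DNA methylation and by a variant Polycomb complex that holds MGA, MAX, E2F6, PCGF6 and L3MBTL2. MGA and MAX recognise the E-box CACGTG, and E2F6 recognises a site that holds TCCCGCC. KMT2A is a methyltransferase of H3K4, and KDM5C removes methyl groups from it.

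The E-box CACGTG was more frequent in the listed promoters than in protein-coding promoters at large, and it was found in marked and unmarked genes alike. From 250 bp before to 50 bp after the TSS, it was found in 14 of the 43 genes (32.6%), against 7.33% of all protein-coding genes and 10.05% of those with CpG-rich promoters. The 8 genes with a site nearest upstream of the TSS are shown, each with up to 30 bases of GRCm38 read 5′ to 3′ on the gene's strand and the E-box in capitals.
Ccnb1ip1: catcagcggggcCACGTGctgagtgcgtgt
Tdrd1: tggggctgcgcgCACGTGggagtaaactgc
Hormad1: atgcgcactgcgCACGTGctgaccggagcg
Sycp3: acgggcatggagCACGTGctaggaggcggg
Rnf17: tgctgggacttgCACGTGctgctgcccctc
Taf7l: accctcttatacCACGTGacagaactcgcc
Slc25a31: cgcaactggaaaCACGTGttatggtcacat
Sycp1: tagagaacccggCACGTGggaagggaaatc
These sites lie at chr14:50807725-50807754 (minus strand), chr19:56826186-56826215 (plus), chr3:95559645-95559674 (plus), chr10:88459532-88459561 (plus), chr14:56402655-56402684 (plus), chrX:134476522-134476551 (minus), chr3:40708766-40708795 (plus) and chr3:102936177-102936206 (minus), in the order shown. The last base of the E-box was 5 bp before the TSS in Ccnb1ip1, 6 bp in Tdrd1, 15 bp in Hormad1, 20 bp in Sycp3, 28 bp in Rnf17, 44 bp in Taf7l, 72 bp in Slc25a31 and 89 bp in Sycp1. Of these 8 genes, Ccnb1ip1 and Rnf17 were marked and the others were not.

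The chromosome axis genes Sycp3 and Hormad1 each held 2 E-boxes close together, whereas the axis genes Sycp2 and Hormad2 held none. The 200 bases before their start sites are given because the 2 promoters had this arrangement and neither had a summit nearby, with E-boxes and the E2F site in capitals.
Sycp3: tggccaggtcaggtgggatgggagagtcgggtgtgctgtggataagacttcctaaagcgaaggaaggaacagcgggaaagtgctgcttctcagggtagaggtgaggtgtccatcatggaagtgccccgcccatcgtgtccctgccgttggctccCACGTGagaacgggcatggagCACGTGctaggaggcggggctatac
Hormad1: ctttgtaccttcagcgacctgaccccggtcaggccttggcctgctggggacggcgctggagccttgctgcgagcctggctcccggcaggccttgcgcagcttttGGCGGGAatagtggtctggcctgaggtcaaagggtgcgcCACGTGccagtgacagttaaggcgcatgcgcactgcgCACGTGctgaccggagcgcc
The Sycp3 stretch is chr10:88459369-88459568 and the Hormad1 stretch is chr3:95559477-95559676, both on the plus strand. Sequences were read from the RefSeq copy of GRCm38, the assembly also called mm10. Across the list there were 18 E-boxes in 14 genes, all of them between 5 and 215 bp upstream of the TSS used, which is the one nearest the best summit in marked genes and the outermost one in the others. Relative to the outermost TSS, 15 of the 18 were upstream, and the 2 of Dazl and that of Rnf17 lay inside the gene. Dazl (marked) and Tdrd9 (unmarked) also held 2 each, 213 and 193 bp before the TSS used in Dazl and 160 and 90 bp before it in Tdrd9. The other E-box genes were Mael, Mov10l1, Stk31 and Meiob.

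A motif match describes the letters only. TCCCGCC, searched on both strands as were all motifs, was found in 10 of 43 genes (23.3%), between the 15.8% of all protein-coding genes and the 26.3% of those with CpG-rich promoters. Dazl, Mael, Hormad1 and Slc25a31 held it together with an E-box. AACNGTT, a MYB site, was found in Stra8, Sycp1, Cyct and Meioc, which is 9.30% of the list against 3.64% of all protein-coding genes. The cyclic AMP response element TGACGTCA was found in 0 of 43 genes against 2.27%. By marking, the E-box was in 4 of 14 marked genes and in 10 of 29 unmarked ones, against 9.19% of marked and 3.9% of unmarked protein-coding genes. It was in 12 of the 26 listed genes with CpG-rich promoters. The plot of motif shares sets the 4 motifs side by side.

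**Figure D1:**
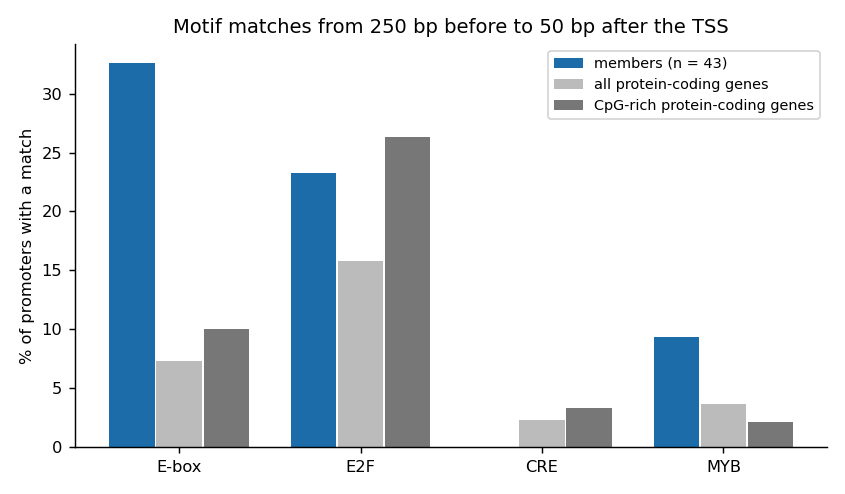
Percent of promoters, from 250 bp before to 50 bp after the TSS, that hold each motif in the 43 germline and meiosis genes (blue), all protein-coding genes (light grey) and those with CpG-rich promoters (dark grey). The E-box is at 32.6% in the germline genes against 7.33% and 10.05%, whereas the E2F site at 23.3% lies between the 2 backgrounds.

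Of the 43 genes, 14 were marked (32.6%), against 64.7% of all protein-coding genes (95% Wilson interval 64.1 to 65.3%, counting error only). Without the genes whose best summit was shared, 10 genes were left (23.3%), against 45.2% of all protein-coding genes. The score of a summit was read as −log10 of its q-value, which measures how surely the peak stood above input and not how much mark a promoter carried. The median score of the 14 marked genes was 29.3 (quartiles 10.9 and 109), against 195 (130 and 230.2) for all marked protein-coding genes. Only 4 of the 14 (28.6%) reached the median score of the whole list, 102, and 5 of 14 (35.7%) scored under 20, against 80.3% and 6.11% of marked protein-coding genes. Both the share marked and the scores were thus below those over protein-coding genes, a difference that was not tested. In bulk tissue, a mark in few cells and a weak mark in many cannot be told apart.

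**Figure D2:**
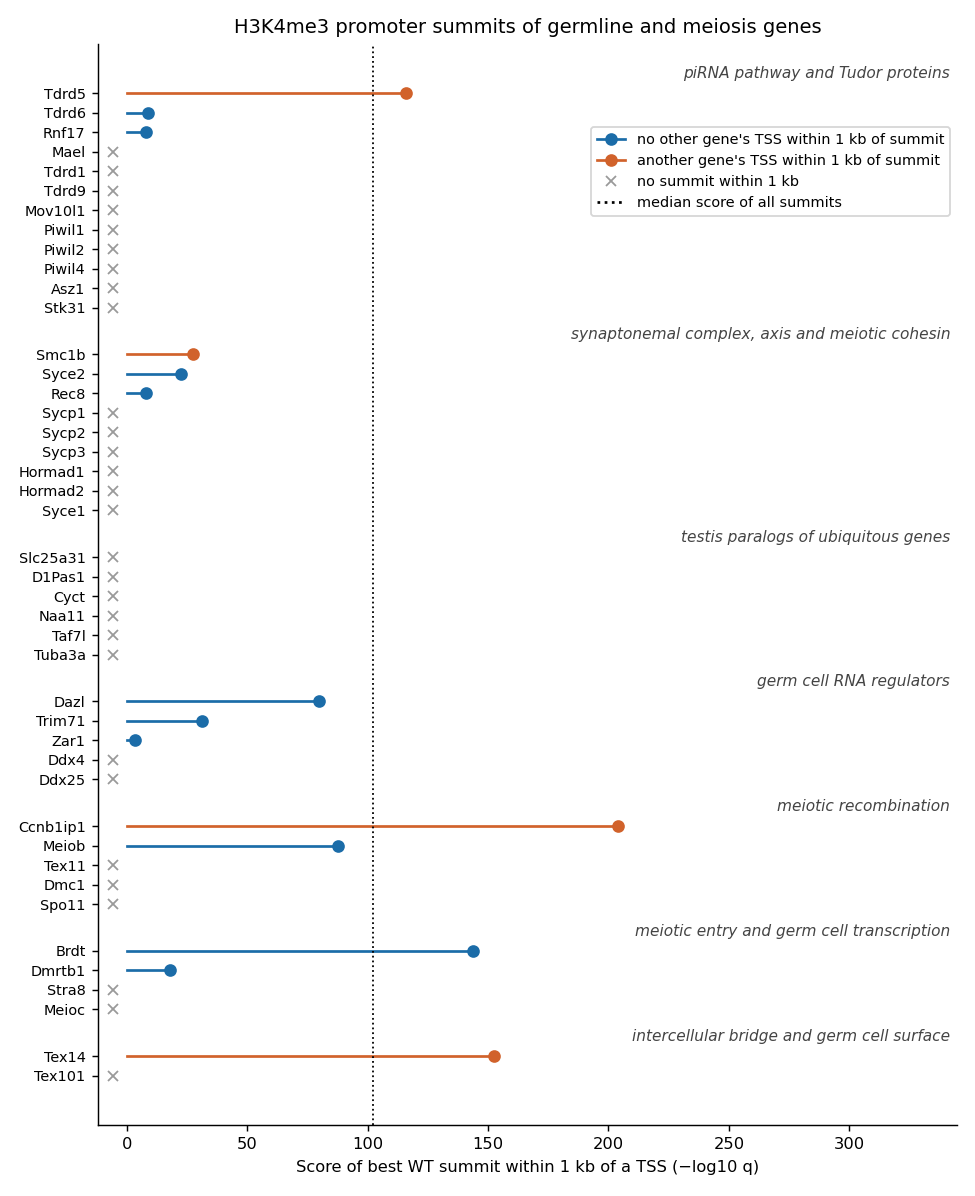
Score (−log10 q) of the best WT summit within 1 kb of a TSS for each of the 43 genes, grouped by role, with shared summits in orange, unshared ones in blue and grey crosses for genes with no summit. The dotted line is the median score of the list, 102, which Ccnb1ip1, Tex14, Brdt and Tdrd5 exceed.

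In the piRNA pathway and among Tudor proteins, 3 of 12 genes were marked. Tdrd5, a Tudor protein of the granules in which piRNAs are made, scored 116 with a summit at position 156303215 of chromosome 1, 133 bp downstream of a Tdrd5 TSS that starts 316 bp inside the gene. An antisense gene, 4930518J20Rik, starts 274 bp from the same summit. Tdrd6, a scaffold of the chromatoid body of spermatids, scored 8.61 at position 43629819 of chromosome 17, in exon 1 and 447 bp downstream of the TSS. Rnf17, a Tudor and RING finger protein, scored 7.63 at position 56402804 of chromosome 14, also in exon 1 and near the TSS of a retained-intron transcript that starts 119 bp inside the gene. Thus the highest of the 3 summits was shared, and both unshared ones were near the bottom of the list, at its percentiles 16.7 and 14.7.

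The other 9 listed genes of this group carried no summit within 1 kb. The PIWI proteins Piwil1, Piwil2 and Piwil4 had their nearest summits at 68854, 14321 and 11248 bp. For Mov10l1, the helicase that feeds precursor RNAs to PIWI proteins, the nearest was at 5002 bp and scored 74.0, with no gene's TSS within 1 kb of it. For Tdrd9, a helicase, and Tdrd1, a scaffold, the nearest summits were at 4959 and 4174 bp and lay at the neighbours Atp5mpl (298) and Ccdc186 (174). Mael, Asz1 and Stk31, whose proteins work in or with the piRNA granules, had none closer than 16059, 43284 and 27607 bp.

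Among germ cell RNA regulators, 3 of 5 genes were marked. Dazl, an RNA-binding protein needed for germ cell development (chromosome 17, 50279395 to 50293636, minus strand), scored 79.5. Its summit, at position 50292669, lay 223 bp downstream of the TSS used by an inner transcript. Trim71, an RNA-binding regulator of stem and germ cells, scored 31.2 at 302 bp downstream of its only TSS, with a further summit of 34.4 inside the gene at position 114563146 of chromosome 9. Zar1, an oocyte factor for maternal RNA, had the lowest score of the marked genes, 3.22, at position 72580664 of chromosome 5, near a TSS that lies 500 bp inside the gene. None of the 3 summits was shared. Ddx4 (also called Vasa), an RNA helicase that defines germ cells, was unmarked, and its nearest summit, at 8494 bp, was that of Slc38a9 (278).

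Ddx25, a testis RNA helicase, was the unmarked gene closest to the limit of 1 kb. Its nearest summit lay 1108 bp from its TSS, scored 196 and was within 1 kb of a Pus3 TSS. On the inner side of the limit, Tex14 was farthest out at 856 bp. Tex14 builds the bridges that join dividing germ cells, and its summit, at position 87404209 of chromosome 11, scored 153 and lay 214 bp from a TSS of another protein-coding gene. The other surface or bridge gene, Tex101, was unmarked, with the nearest summit at 33541 bp.

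Of the genes for meiotic entry and germ cell transcription, 2 of 4 were marked, both at inner transcripts. Brdt, the testis bromodomain protein, scored 144 at position 107360113 of chromosome 5, 276 bp from the TSS of a processed transcript that starts 28678 bp inside the gene. Dmrtb1, a regulator of the switch into meiosis, scored 17.9 at position 107680691 of chromosome 4, near the TSS of a retained-intron transcript that starts 3270 bp inside the gene. Neither gene was marked at its outermost TSS. Stra8, which starts meiosis in response to retinoic acid, and Meioc, which keeps the meiotic programme going, were unmarked, with the nearest summits at 9579 and 31914 bp.

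Of 9 genes for the synaptonemal complex, chromosome axis and meiotic cohesin, 3 were marked, all at scores under 30. Smc1b, the meiotic SMC1 subunit of cohesin, scored 27.4, and its summit at position 85132232 of chromosome 15 was 268 bp upstream of its TSS and 129 bp from that of Ribc2. Syce2, a central element protein, scored 22.4 at position 84872405 of chromosome 8. This was 33 bp upstream of the TSS of a retained-intron transcript that starts 327 bp inside the gene, and it lay within the longer Syce2 transcripts. Rec8, the meiotic kleisin, scored 7.77 at position 55618326 of chromosome 14, with a second summit of 3.63 at 719 bp. The 6 others were unmarked. Sycp1, the transverse filament protein, and the axis proteins Sycp2, Sycp3, Hormad1 and Hormad2 had their nearest summits at 60000, 5051, 43660, 29425 and 153120 bp, and Syce1 at 34111 bp. The summit nearest Sycp2 scored 8.07, whereas those nearest the other 5 scored between 158 and 280.2 and lay at other genes.

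Of 5 recombination genes, 2 were marked. Ccnb1ip1, a crossover factor also called HEI10, had the highest score of the list, 204, but that summit at position 50808081 of chromosome 14 lay 135 bp from a Parp2 TSS and 314 bp from that of Rpph1. Near its second TSS Ccnb1ip1 had a weaker summit of 4.45 at position 50795628, 100 bp downstream. Meiob, a single-strand DNA-binding partner needed for repair of meiotic breaks, scored 87.6 at position 24804469 of chromosome 17, 110 bp downstream of a TSS that lies 70 bp inside the gene. With non-coding neighbours counted as sharing, this was the highest score of an unshared summit with a coding transcript's TSS within 1 kb. Spo11, which makes the meiotic breaks, Dmc1, the meiotic recombinase, and Tex11, an X-linked crossover gene, were unmarked, with nearest summits at 14716, 39259 and 25418 bp.

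Once genes whose best summit was shared or lay near only non-coding transcripts were set aside, 8 genes were left. They were Dazl, Tdrd6, Rnf17, Zar1, Rec8, Meiob, Syce2 and Trim71, with scores from 3.22 to 87.6 and a median of 15.5. Of these, 5 scored under 30, and 0 of 8 reached the median of the list. This counts non-coding neighbours as sharing a summit. Tdrd5 (116), set aside only for an antisense gene, was unshared when only TSSs of protein-coding transcripts were used, and it exceeded that median. For all 10 unshared best summits the median was 20.1 against 185 over protein-coding genes, and for the 4 shared ones 134 against 215. The summits lay downstream of the TSS in 10 of 14 genes, against 11253 of 14197 marked protein-coding genes. The median offset was 122 bp against 171 bp over marked protein-coding genes.

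None of the 29 unmarked genes had a summit anywhere in its body. The median distance from a TSS to the nearest summit was 27609 bp, against 60458 bp for unmarked protein-coding genes outside the list. Among the 29 genes the distance ran from 1108 bp at Ddx25 to 218264 bp at D1Pas1. It was under 5 kb in 3 genes, under 10 kb in 8 and over 50 kb in 6. In 23 of 29 the nearest summit lay within 1 kb of the TSS of another protein-coding gene. Peaks were deposited as summits with no width, so how far a broad peak reached towards a listed gene is not known.

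Of the 6 testis copies of broadly expressed genes, 0 were marked. For D1Pas1, a testis copy of the RNA helicase gene Ddx3x, the nearest summit lay 218264 bp away, and Ddx3x scored 215. For Cyct, testis cytochrome c, it lay 9745 bp away, and Cycs scored 252. Slc25a31, a germ cell ADP/ATP carrier, was 37033 bp from a summit, while its relative Slc25a4 scored 267. The other copies were Naa11 (an N-terminal acetyltransferase), Tuba3a (a tubulin) and Taf7l (a TFIID subunit), at 114179, 27609 and 64816 bp, whose relatives Naa10, Tuba1a and Taf7 scored 193, 265 and 238.

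In the 13 pairs of a listed gene and a broadly expressed relative reported here, all 13 relatives were marked, with scores from 171 to 267 and a median of 206. Of the relatives 11 had CpG-rich promoters, and their count and scores were near the 96.0% and the median of 204 of CpG-rich protein-coding genes. The listed gene was marked in 3 pairs, and the relative scored higher in each of the 3. Smc1b (27.4) stood beside Smc1a (182), Rec8 (7.77) beside Rad21 (171), and Trim71 (31.2) beside Trim2 (235). Piwil1 and Piwil2 were unmarked where Ago1 and Ago2 scored 200.2 and 201, and so were Mov10l1 beside Mov10 (198) and Ddx25 beside Ddx19a (206). The summits of the relatives Cycs, Naa10, Tuba1a and Smc1a were shared with other genes. Scores compare certainty of peaks, and the pairs were chosen as relatives and not matched on promoter sequence.

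**Figure D3:**
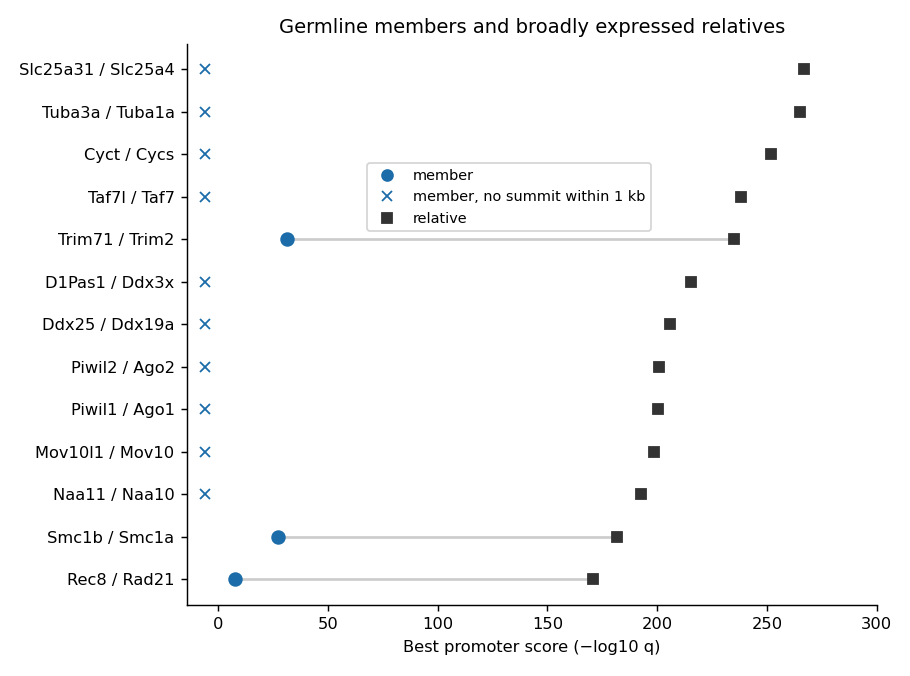
Best promoter score (−log10 q) of 13 listed genes (blue, crosses where there was no summit within 1 kb) and of a broadly expressed relative (dark squares), 1 pair per line. All 13 relatives lie between 171 and 267, to the right of every listed gene they are paired with.

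By the main definition of CpG-rich, the share marked among genes with such promoters was lower for the germline list than for protein-coding genes. Under a stricter definition the gap rested on Slc25a31 alone. A promoter was called CpG-rich if observed over expected CpG was at least 0.6 and GC at least 50% in the 500 bp on either side of the TSS. By this rule 26 of the 43 genes (60.5%) were CpG-rich, against 47.7% of protein-coding genes. Of the 26, 10 were marked (38.5%), whereas 96.0% of the 10470 CpG-rich protein-coding genes were. Under a stricter limit of 0.75 and 55%, only 7 germline genes were CpG-rich, and 6 of these (85.7%) were marked, against 96.9% of 5816 protein-coding genes, Slc25a31 being the unmarked one. Of the 17 others, 4 were marked (23.5%), against 36.1%. Median observed over expected CpG was 0.75 in marked and 0.62 in unmarked germline genes, and 0.72 and 0.18 in marked and unmarked protein-coding genes.

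Between 0.6 and 0.8 of observed over expected CpG, 6 of 23 germline genes were marked against 94.9% of protein-coding genes. Between 0.8 and 1.0, all 4 were marked, against 96.9%. From 0.4 to 0.6 it was 3 of 8 against 81.5%, and from 0.2 to 0.4 it was 1 of 7 against 31.6%. Most germline genes lay in the group from 0.6 to 0.8, where the gap to protein-coding genes was widest. The 4 genes of the densest group were Trim71 and Tdrd5 (both 0.86), Dazl (0.82) and Syce2 (0.81), and Ccnb1ip1 followed at 0.80. The plot of CpG content shows the marked genes one by one.

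**Figure D4:**
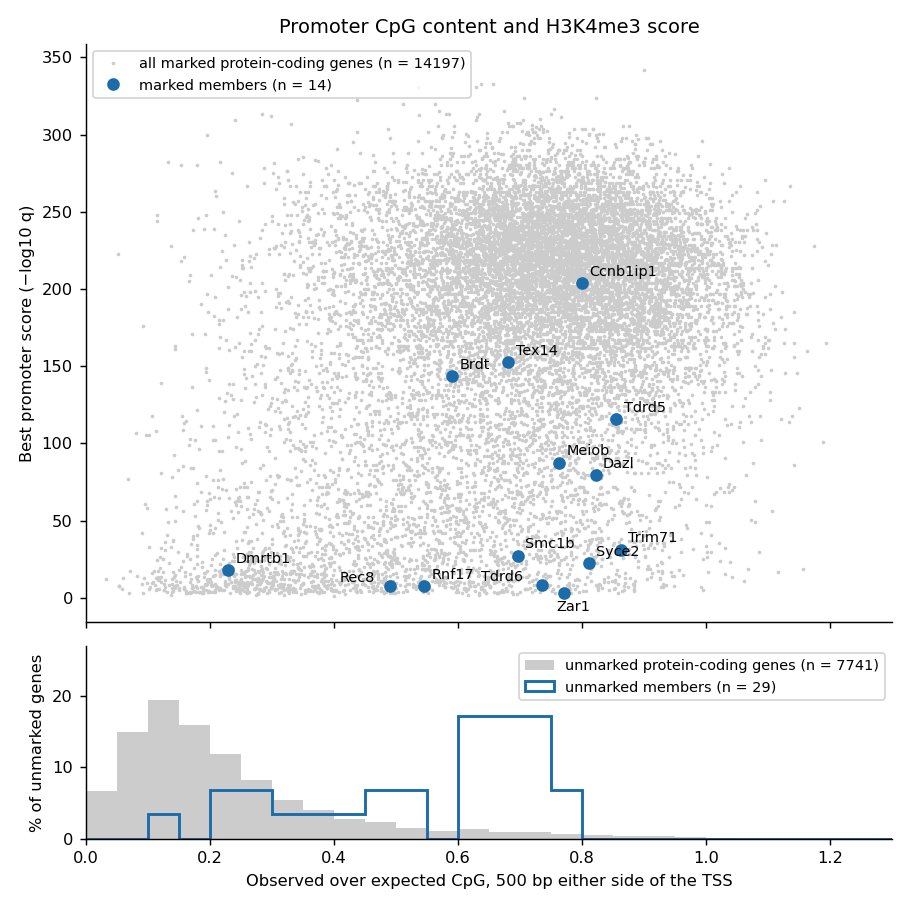
Best promoter score (−log10 q) against observed over expected CpG of marked protein-coding genes (grey) and the 14 marked germline genes (blue, named), above the distribution of CpG content in the unmarked genes of each kind. Unmarked germline genes peak between 0.6 and 0.8, whereas unmarked protein-coding genes have a median of 0.18.

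The 16 CpG-rich unmarked genes were Ddx4, Mael, Sycp1, Sycp2, Sycp3, Hormad1, Tdrd1, Mov10l1, Asz1, Slc25a31, Stk31, D1Pas1, Naa11, Dmc1, Taf7l and Ddx25. Only 416 CpG-rich protein-coding genes were unmarked, and these 16 made up 3.85% of them, although the list made up 0.248% of CpG-rich protein-coding genes. Their median distance to the nearest summit was 33229 bp, against 5787 bp for the other 400. Over all unmarked protein-coding genes outside the list it was 60458 bp, with 6.83% of them within 3 kb of a summit. A summit lay within 3 kb in 1 of the 16 (Ddx25) and in 179 of the 400 (44.8%). The E-box was in 9 of the 16, against 46 of the 400 (11.5%) and 9.92% of CpG-rich marked protein-coding genes.

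Genes of other lists drawn up for germline roles were marked to differing extents. Whether genes on these lists, such as Tdrd3 and Odf2, are also used outside the germline was not examined. Of 22 other meiosis genes, 12 were marked (54.5%), and 9 (40.9%) without a shared summit, with a median score of 135. Of 11 genes listed as other piRNA pathway genes, 5 were marked, namely Tdrd3 (235), Tdrd7 (229), Tdrkh (209.6), Pld6 (56.8) and Henmt1 (23.6). The summits of Tdrkh and Henmt1 were shared with other annotated genes. Of 18 spermatid genes, 3 were marked, Odf2 (206), Zpbp (124) and Hspa1l (37.9), and the summits of the latter pair lay 346 bp from a Spata48 TSS and 130 bp from one of Hspa1a. Of 10 oocyte genes, Gdf9 (244) was marked, and that summit lay 64 bp from a Uqcrq TSS. Of 6 markers of the Sertoli and Leydig cells of the testis, Inha (187) was marked, with a summit 91 bp from Obsl1. The 43 genes thus lay below the other meiosis and other piRNA pathway genes (45.5%) in the share marked. They lay above the spermatid and oocyte genes, a description without a test. The lists differed in promoter class, with CpG-rich promoters in 26 of the 43 genes but in 2 of 18 spermatid and 1 of 10 oocyte genes. Among CpG-rich genes, 10 of 26 listed ones were marked, against 9 of 13 other meiosis, 5 of 6 other piRNA pathway, 2 of 2 spermatid and 1 of 1 oocyte genes. Among the rest it was 4 of 17, against 3 of 9, 0 of 5, 1 of 16 and 0 of 9. The order over spermatid and oocyte genes thus held outside CpG-rich promoters. Within them only Odf2, Zpbp and Gdf9 were compared, and the summits of Zpbp and Gdf9 were shared, so no order is read there.

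The genes for the machinery known to silence germline genes were marked in 21 of 21 cases, 16 of them (76.2%) without a shared summit, with scores from 57.7 to 248 and a median of 184. Of these genes 19 had CpG-rich promoters, a class in which 96.0% of protein-coding genes were marked at a median of 204, so the count was near that background. Of the Polycomb complex named above, Max scored 248, L3mbtl2 240.0, E2f6 195, Pcgf6 176 and Mga 165. Dnmt1, the maintenance DNA methyltransferase, scored 213, and Kdm5c scored 184. The labelled tissue was checked against brain cell markers, and a promoter summit was found at 8 of 8 neuron, 4 of 4 astrocyte and 4 of 4 oligodendrocyte genes.

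**Figure D5:**
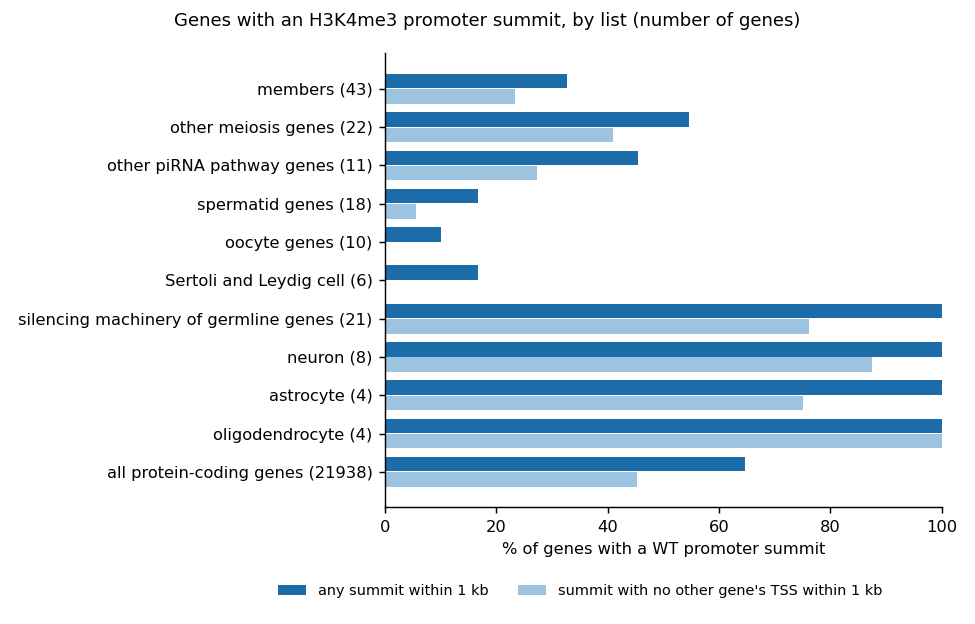
Percent of genes with a WT promoter summit in each list (dark blue), and with a best summit that no other gene's TSS shares (light blue), with the number of genes in parentheses. The 43 listed genes are at 32.6% and 23.3%, all protein-coding genes at 64.7% and 45.2%, the silencing machinery at 100% and 76.2%, and brain cell markers at 100% for any summit, with unshared ones in 7 of 8 neuron, 3 of 4 astrocyte and 4 of 4 oligodendrocyte genes.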

How the data were processed

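H3K4me3 ChIP-seq of amygdala nuclei from 2 WT mice was used. The authors mapped the reads with Bowtie to mm10, per the labels, and used MACS2 2.1.0.20140616 to call peaks over input. The deposited score was read as −log10 of the q-value, although the file does not name its scale. The authors' list holds 24162 summits of 1 bp, of which 24139 on the assembled nuclear chromosomes were used. Scores run from 1.18 to 341.7, and read depth is not given by the list.

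TSSs were those of all transcripts of GENCODE release M21 on GRCm38. Promoter CpG and motifs were read at the TSS nearest the best summit, or at the outermost TSS of unmarked genes. All 43 germline symbols matched, and of 147 symbols over all lists, these included, 143 matched directly and 4 as synonyms. All listed genes are named, with marked genes of other lists where they are 5 or fewer. Of the pairs of relatives, 2 are not reported here, for a reason unrelated to their values. Members, lists, pairs and motifs were chosen with earlier results of these data known. No p-value is given, because genes of 1 pooled list are not replicates. The scripts were tested on simulated data. Python 3.11.15, pandas 2.3.3, numpy 2.4.6, scipy 1.17.1, pysam 0.24.0 and matplotlib 3.10.9 were used. Alternatives covered the promoter window, TSSs, score, joined summits and the CpG rule.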

Additional observations from a re-analysis of the deposited data

How the results depend on the processing

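The count of marked germline genes was 14, and it lay between 10 and 15 under the alternatives tried other than a score at or above the list median, which left 4. With a window of 500 bp Tex14 was lost, with 3 kb Ddx25 was gained, and with outermost TSSs or those of protein-coding transcripts Dmrtb1 and Brdt were lost. With a score of at least 10, Tdrd6, Rnf17, Zar1 and Rec8 were lost. Unshared genes, 10 in number, fell to 6 with a score of at least 10 and to 1 (Brdt) at the list median, and the median score, 29.3, rose to 83.6 and 148. These follow from keeping fewer summits. For protein-coding genes as a whole the marked share moved from 64.7% to 57.1% (500 bp), 67.1% (3 kb), 58.2% (outermost TSSs), 63.5% (coding transcripts), 62.7% and 52.0% with the score limits, and 65.6% with RefSeq TSSs added, a choice made after seeing the data. The germline share stayed below it in each of these. At 0.75 and 55%, 7 genes were CpG-rich in place of 26, and 6 of the 7 (85.7%) were marked in place of 10 of 26 (38.5%), so a minority became a majority. With CpG read at outermost TSSs it stayed at 10 of 26. Counting marked genes under these rules was added after seeing the data. The E-box count, 14, was 13 (30.2%, against 7.75%) from outermost TSSs and 21 (48.8%, against 16.7%) within 500 bp on either side, both chosen after seeing the data. No paired analysis was possible because the list pools the WT mice, so no replicate could be left out either. The depth behind each score is not known, and a weak summit at or below the calling threshold would not be seen.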

Other observations

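Inside Tex14, 6 further summits lay in the gene body, and each was within 1 kb of a small RNA gene. The best, at position 87422452 of chromosome 11, scored 33.9 and lay at Rnu1a1, a U1 small nuclear RNA gene, and another at position 87448180 scored 24.9 and lay at Rnu3b3. Elsewhere, body summits were found in Tdrd5 (6.20), Ccnb1ip1 (17.2) and Trim71 (34.4 and 4.26), none with another gene's TSS within 1 kb.

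Several listed genes have close copies in the genome, and only uniquely mapped reads were used to call peaks. Around the TSS used for each gene, the share of 75-base windows within 1 kb with an exact copy elsewhere was taken. It had a median of 0% in both marked and unmarked genes. Near copies were not counted, although the authors' alignment allowed mismatches, so reads lost to them are not measured. It was over 10% in Zar1 (18.3%, marked) and Tex101 (22.7%, unmarked).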
